A study of Mus musculus with 6 samples.

Results

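Collagen genes of primary mouse cardiomyocyte cultures were compared between cells in which the M90I variant of the RAS-related GTPase RIT1 had been switched on and control cells. A collagen gene was any gene whose symbol in the GENCODE M21 annotation is Col, a number, a and a number, and 44 of the 54532 genes listed met this rule. By the architecture of their products, 11 are fibrillar, 6 are basement membrane chains (type IV), 9 are fibril-associated collagens with interrupted triple helices (FACIT) and 18 fall outside these classes. Of the 44, 27 had a mean of at least 0.5 FPKM (fragment counts divided by exon length and library size) over the 6 samples and were tested, which were 9 fibrillar, 6 basement membrane, 4 FACIT and 8 other genes.

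Hearts of neonatal mice were digested with collagenase, cells that attached early to plastic were discarded, and the remaining cells were plated on laminin. On day 3 after isolation, cultures were infected with adenovirus encoding GFP (AdGFP, 3 samples, genotype labelled Rit1 +/+) or GFP-Cre (AdCre, 3 samples, genotype labelled Rit1 M90I/+). According to the study, the donor mice carry a Rit1 M90I allele that Cre recombinase activates, so both groups share the engineered locus and an adenovirus carrying GFP. Wild-type cells with AdCre are not in the samples used here, and effects of the variant and of the recombinase cannot be told apart. Reads recovered from the FPKM values numbered 25.3 to 26.5 M (megareads) per AdGFP sample and 26.0 to 32.4 M per AdCre sample, and tested collagen genes had between 47 and 396301 reads in a sample.

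Markers of other cell types were read beside those of cardiomyocytes. None of the markers listed for any cell type was at 0 in all 6 samples. The summed level of 10 cardiomyocyte markers was 2226 to 3318 FPKM in AdGFP and 1383 to 1983 FPKM in AdCre, that of 12 endothelial markers was 104 to 157 and 148 to 217 FPKM, and that of 12 fibroblast markers was 1241 to 1374 and 1169 to 1347 FPKM. The groups did not overlap for cardiomyocyte markers and overlapped for endothelial and fibroblast markers. In bulk samples, fewer cells of a type and less RNA per cell cannot be told apart. The part of these levels in any collagen difference was not tested.

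Collagens are secreted proteins in which 3 chains wind around each other, and each chain has its own gene. Fibrillar collagens form the tensile fibres of the interstitium, with types I and III making up most of the collagen of the heart wall, where fibroblasts are the main source. Type IV collagen forms the sheet-like network of basement membranes, which surround each cardiomyocyte and underlie the endothelium. FACIT collagens sit on fibril surfaces, types XV and XVIII are basement membrane proteoglycans that release antiangiogenic fragments, type VI forms beaded filaments and type VII makes the anchoring fibrils under epithelia. New chains are hydroxylated, glycosylated and folded in the endoplasmic reticulum, trimmed by proteases once secreted, and crosslinked by lysyl oxidases.

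The 6 type IV genes lie in head-to-head pairs, each pair transcribed outwards from a shared upstream region. The starts of Col4a1 and Col4a2 are 21 bases apart on chromosome 8, those of Col4a3 and Col4a4 are 72 bases apart on chromosome 1, and those of Col4a5 and Col4a6 are 1309 bases apart on chromosome X. The results below turn on the contrast between the chromosome X pair and the chromosome 8 pair, so the promoter windows of these 4 genes are shown. Each runs from 250 bases before to 50 bases after the start of the gene, 5′ to 3′ on the strand of the gene, from RefSeq on GRCm38.p6. The windows are chrX:141475169-141475468 (plus strand) for Col4a5, chrX:141474027-141474326 (minus) for Col4a6, chr8:11312777-11313076 (minus) for Col4a1 and chr8:11312555-11312854 (plus) for Col4a2. Capitals mark the CCAAT box (CCAAT) and the GC box (GGGCGG), searched on both strands. Within a window no matches share a base, but the chromosome 8 windows overlap, and the GC box of Col4a1 and the last of Col4a2 are the same bases.
Col4a5: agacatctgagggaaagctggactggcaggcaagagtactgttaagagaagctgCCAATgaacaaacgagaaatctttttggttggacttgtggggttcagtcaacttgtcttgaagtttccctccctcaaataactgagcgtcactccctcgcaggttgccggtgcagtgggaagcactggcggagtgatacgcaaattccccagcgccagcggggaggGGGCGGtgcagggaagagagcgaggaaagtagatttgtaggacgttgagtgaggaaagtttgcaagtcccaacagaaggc
Col4a6: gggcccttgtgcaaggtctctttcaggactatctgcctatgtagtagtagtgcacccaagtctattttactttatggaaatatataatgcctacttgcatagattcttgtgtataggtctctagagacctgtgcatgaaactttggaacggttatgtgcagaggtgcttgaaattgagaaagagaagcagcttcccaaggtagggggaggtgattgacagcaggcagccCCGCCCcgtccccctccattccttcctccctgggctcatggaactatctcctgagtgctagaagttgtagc
Col4a1: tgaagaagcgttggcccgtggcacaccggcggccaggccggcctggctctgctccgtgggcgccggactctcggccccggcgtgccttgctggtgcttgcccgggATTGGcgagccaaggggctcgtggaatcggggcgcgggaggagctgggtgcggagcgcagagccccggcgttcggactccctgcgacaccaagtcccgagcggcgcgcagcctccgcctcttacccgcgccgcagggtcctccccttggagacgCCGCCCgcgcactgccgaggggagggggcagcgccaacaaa
Col4a2: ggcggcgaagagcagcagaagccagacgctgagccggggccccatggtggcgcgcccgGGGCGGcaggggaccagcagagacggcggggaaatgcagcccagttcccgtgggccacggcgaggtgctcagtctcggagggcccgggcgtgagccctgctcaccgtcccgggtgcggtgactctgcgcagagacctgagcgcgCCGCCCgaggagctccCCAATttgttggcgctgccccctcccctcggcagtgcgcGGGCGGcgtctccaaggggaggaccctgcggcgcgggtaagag

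The windows of the chromosome 8 pair overlap each other and held 74.0% (Col4a1) and 73.7% (Col4a2) G and C, against a median of 52.7% over all promoters of this length. Those of the chromosome X pair held 52.7% (Col4a5) and 48.3% (Col4a6). The Col4a5 window had a CCAAT box at -196 and a GC box at -30 (first letter, with the RefSeq start of the gene at 0), and the Col4a6 window had a GC box alone, at -21. The RefSeq start of Col4a5 is 141475419, and the gene coordinates and distances between starts given here are those of GENCODE M21, which places it elsewhere. The GC box was present in 35.7% and the CCAAT box in 37.4% of 32851 promoters. None of the 4 windows held the letters of a TATA box (TATAAA, in 13.6% of promoters), an AP-1 site (TGANTCA, 7.81%) or an ETS site (CCGGAAG, 8.86%) on either strand. Over the whole class, RefSeq windows were matched for 35 of the 44 collagen genes. The GC box was in 16 of the 23 windows of tested genes, and the AP-1 letters were in 1, that of Col6a1.

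Levels, per length of exon, spanned more than 3 orders of magnitude. Col1a1 (type I chain) had the highest mean over the 6 samples, 1808 FPKM, followed by Col4a1 at 672, Col1a2 at 589, Col3a1 at 522, Col4a2 at 466 and Col5a1 at 223 FPKM. Summed over the 44 genes, collagens made up 1.32, 1.82 and 2.43% of all FPKM in AdGFP samples 1 to 3 and 1.38, 1.76 and 1.95% in AdCre samples 1 to 3. The groups overlapped, and the spread within each was larger than the difference between their means, 1.85% ± 0.553 in AdGFP and 1.70% ± 0.289 in AdCre (SD, n = 3 each). The log2 change of this share was -0.10, and leaving out AdGFP replicate 3 turned it to 0.12, leaving out AdCre replicate 1 to 0.04 and leaving out AdGFP replicate 1 to -0.32. Fibrillar genes supplied 59.7 to 71.4% of collagen FPKM in AdGFP and 56.9 to 64.8% in AdCre.

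**Figure D1:**
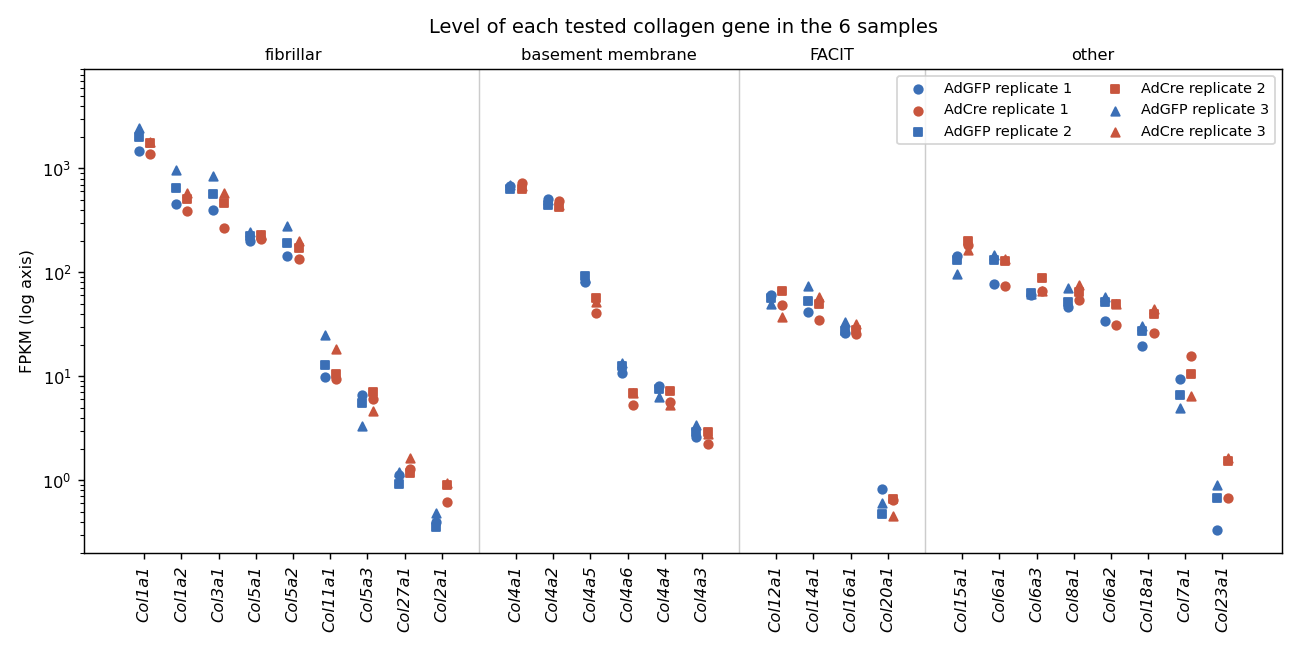
Level of each tested collagen gene in FPKM on a log axis, grouped by class, with 1 point per sample (blue, AdGFP; red, AdCre; circle, square and triangle, replicates 1, 2 and 3). The points of Col4a5 and Col4a6 are separated by colour with AdCre below AdGFP, those of Col2a1, Col6a3 and Col15a1 with AdCre above, and for the other 22 genes the colours overlap.

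**Figure D2:**
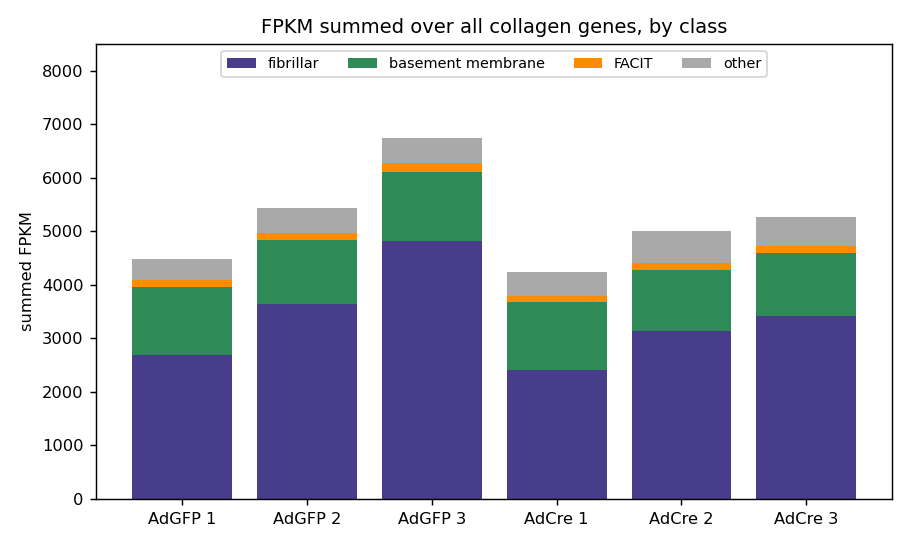
FPKM summed over the 44 collagen genes in each of the 6 samples as stacked bars, split into fibrillar, basement membrane, FACIT and other genes. The fibrillar segment runs from 2682 to 4813 in AdGFP and from 2409 to 3420 in AdCre, whereas the basement membrane segment stays between 1129 and 1297 in every sample.

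The comparison of AdCre with AdGFP asks how the transcriptome responds to RIT1 M90I. Values were tested as log2(FPKM + 0.1) with limma, and p-values were adjusted over all genes tested. The labels number the samples 1 to 3 in both groups, and a second fit took each number as a pair (the replicate block), since same-numbered samples deviated together. Without the block, 0 of the 27 collagen genes passed an adjusted p of 0.05, where 1 of 13794 genes (0.00725%) did, and the adjusted p-values of the collagen genes ran from 0.144 to 0.996. At an unadjusted p under 0.05 there were 4 (Col2a1 and Col15a1 higher, Col4a5 and Col4a6 lower in AdCre), or 14.8% beside 10.2% of all genes tested, and voom on the recovered reads also called 0 collagen genes and had 4 at that level. With the replicate number as a block, 6 of 27 passed (22.2%, beside 6.15% of all genes tested; 5 of 27 and 6.34% after rescaling every sample to the same total (TPM), and 0 of 44 and 0.0598% with no filter on low values). Col7a1, Col15a1 and Col18a1 were higher in AdCre (11.1%, beside 2.64%) and Col3a1, Col4a5 and Col4a6 were lower (11.1%, beside 3.51%). Of all genes that passed with the block, the share higher in AdCre was 42.9% on the deposited values, 61.0% on TPM and 57.6% with voom on recovered reads.

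Groups did not overlap for 5 of the 27 genes (18.5%, beside 15.4% of all genes tested), with Col2a1, Col6a3 and Col15a1 higher (7.36% of all genes) and Col4a5 and Col4a6 lower (8.02% of all genes). The fold change was above 0 for 10 genes and below 0 for 17, of which 4 (Col4a2, Col5a1, Col6a1 and Col16a1) moved above 0 after rescaling to TPM. The median log2 fold change was -0.08, against -0.002 over all genes tested. By class, the median was -0.24 for fibrillar, -0.22 for basement membrane, -0.13 for FACIT and 0.36 for other genes, each with the same sign under every scaling tried. On TPM, where the median over all genes tested was 0.085, the fibrillar and basement membrane medians were -0.15 and -0.14. Single samples moved these medians, and the fibrillar one was -0.002 with AdGFP replicate 3 left out, -0.10 with AdCre replicate 1 left out, and -0.43 when AdGFP replicate 1 was dropped. The FACIT median, over 4 genes, was -0.04 on TPM and between -0.23 and -0.04 when single samples were left out, and that of the other genes was 0.23 with a filter at 1 FPKM. For 23 of the 27 genes, leaving out 1 sample moved the log2 fold change by more than 1.5 times or turned its sign, and the other 4 were Col2a1, Col4a5, Col4a6 and Col15a1.

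Much of the spread of the collagen genes was shared by samples with the same replicate number. The same replicate was the lowest in both groups for 24 of 27 genes (88.9%, beside 59% of all genes tested) and the highest in both for 19 (70.4%, beside 60.9%). Across the 27 genes, deviations from the group means correlated at 0.883, 0.627 and 0.906 between AdGFP and AdCre samples numbered 1, 2 and 3, and between -0.887 and 0.050 for other combinations. This is a correlation across genes, which share their libraries. The median within-group SD was 0.30 on the log2 scale, and the median SD of the 3 within-pair differences was 0.16. The first is taken over single samples and the second over differences between samples, so their sizes cannot be compared directly. The fold change exceeded the within-group SD for 10 of the 27 genes, a count made for the collagen genes only, without a share over all genes to set beside it. In each of the 3 pairs, 21 genes differed in 1 direction (77.8%, beside 48.4%), 8 of them higher and 13 lower in AdCre.

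**Figure D3:**
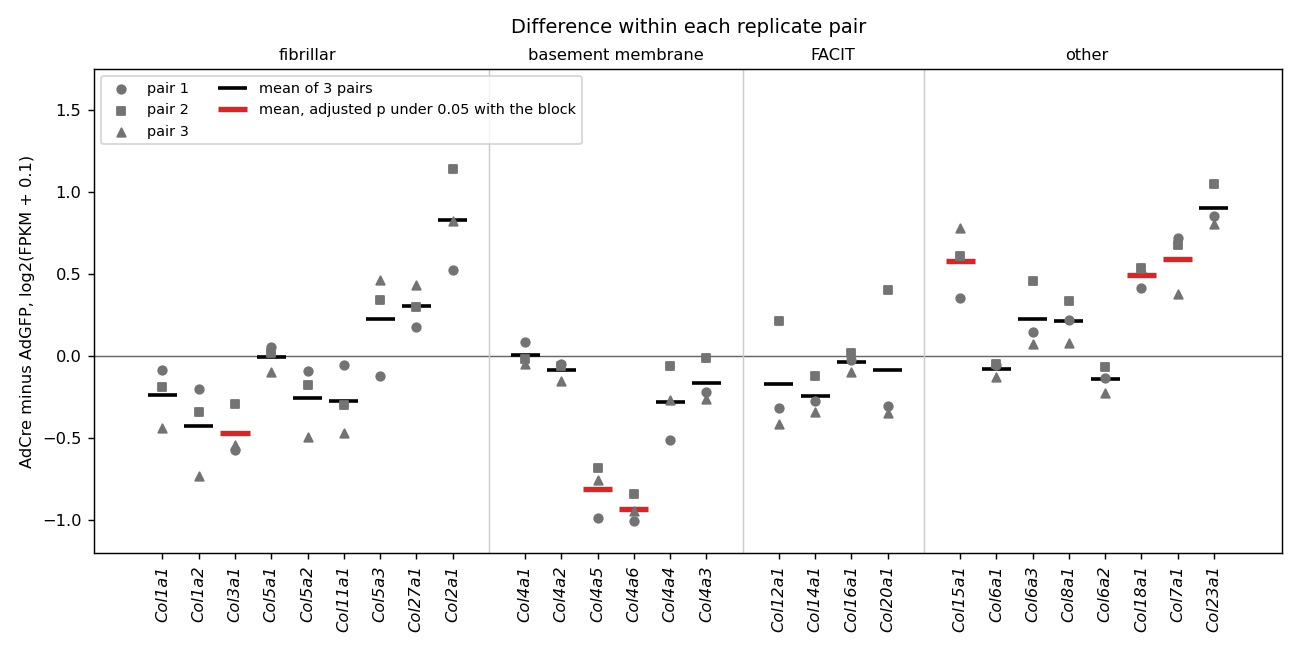
Difference of AdCre from AdGFP on the log2(FPKM + 0.1) scale within each replicate pair (points) for the 27 tested collagen genes, with the mean of the 3 pairs as a bar, red where the adjusted p is under 0.05 with the replicate block. All 3 points lie below -0.6 for Col4a5 and Col4a6 and above 0.3 for Col7a1, Col15a1 and Col18a1. They also lie above 0.3 for Col2a1 and Col23a1, which did not pass.

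The X-linked basement membrane genes Col4a5 and Col4a6 had the most negative log2 fold changes of the tested collagen genes. Col4a5 (ENSMUSG00000031274, chrX:141475385-141689234, GRCm38) encodes the chain that joins the products of Col4a3 and Col4a4 in specialised basement membranes and that of Col4a6 in others, and its loss causes Alport syndrome. It was at 80.8, 92.0 and 88.2 FPKM in AdGFP samples 1 to 3 and at 40.7, 57.3 and 52.2 FPKM in AdCre samples 1 to 3. Every AdCre sample was below every AdGFP sample. The means were 87.0 ± 5.70 and 50.1 ± 8.47 FPKM (SD, n = 3 each), and the fitted log2 fold change was -0.81 (SE 0.16, limma adjusted p 0.206, with the block 0.0149).

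Col4a6 (ENSMUSG00000031273, chrX:141165403-141474076), which encodes the partner chain of Col4a5 in the basement membranes of smooth muscle, was at 10.8, 12.5 and 13.3 FPKM in AdGFP and at 5.31, 6.95 and 6.84 FPKM in AdCre. It too was lower in all AdCre samples than in any AdGFP sample. The means were 12.2 ± 1.29 and 6.37 ± 0.916 FPKM (SD, n = 3 each), and the log2 fold change was -0.93 (SE 0.15, limma adjusted p 0.144, with the block 0.0119). Across all settings of the fit without the block, the change stayed between -0.91 and -0.67 for Col4a5 and between -1.02 and -0.81 for Col4a6, with no adjusted p under 0.136. With the block, neither passed without pair 3, without the filter on low values or without the trend, and without pair 2 only Col4a6 did (limma adjusted p 0.0469). The ratio of Col4a6 to Col4a5 was 0.133, 0.136 and 0.151 in AdGFP against 0.130, 0.121 and 0.131 in AdCre, without overlap. Its log2 difference, -0.13, ran from -0.17 to -0.08 when single samples were left out. This ratio was chosen after its values were seen and was not tested. The 10 cardiomyocyte markers were lower in AdCre too, with a median log2 fold change of -0.75 and pair medians of -0.84, -0.60 and -0.86, and 6 of them passed as lower with the block (beside 3.51% of all genes tested). Their part in the Col4a5 and Col4a6 values was not tested.

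The major type IV chains did not share this pattern. Col4a1 (ENSMUSG00000031502, chr8:11198423-11312826) and Col4a2 (ENSMUSG00000031503, chr8:11312805-11449287) encode the chains of the network found in nearly all basement membranes. Col4a1 was at 679, 638 and 693 FPKM in AdGFP and at 722, 632 and 670.5 FPKM in AdCre, and the fitted log2 fold change was 0.01 (SE 0.15, limma adjusted p 0.995). Col4a2 was at 506, 441 and 493 FPKM in AdGFP and at 489, 423 and 443 FPKM in AdCre, and the fitted log2 fold change was -0.09 (SE 0.15, limma adjusted p 0.910). For both genes the ranges overlapped. Exons of the pair overlap each other or an antisense gene over 0.295% (Col4a1) and 0.982% (Col4a2) of their length.

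Set against the major chain, the Col4a5 to Col4a1 ratio, chosen after its values were seen and not tested, was 0.130 ± 0.0128 in AdGFP and 0.0750 ± 0.0173 in AdCre (SD, n = 3 each), without overlap. Its log2 difference, -0.82, ran from -0.97 to -0.63 when single samples were left out. Col4a3 and Col4a4, whose products join that of Col4a5 in the basement membrane of the renal glomerulus, were low. Col4a3 was at 2.98 ± 0.393 and 2.65 ± 0.369 FPKM, and Col4a4 at 7.35 ± 0.930 and 6.06 ± 1.06 FPKM, in AdGFP and AdCre (SD, n = 3 each). Neither passed (limma adjusted p 0.829 and 0.651, and 0.442 and 0.201 with the block), and both had lower values in AdCre within all 3 pairs. Exons of Col4a3 overlap an antisense gene over 5.65% of their length, and reads of both strands cannot be told apart unless strand was used in counting.

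**Figure D4:**
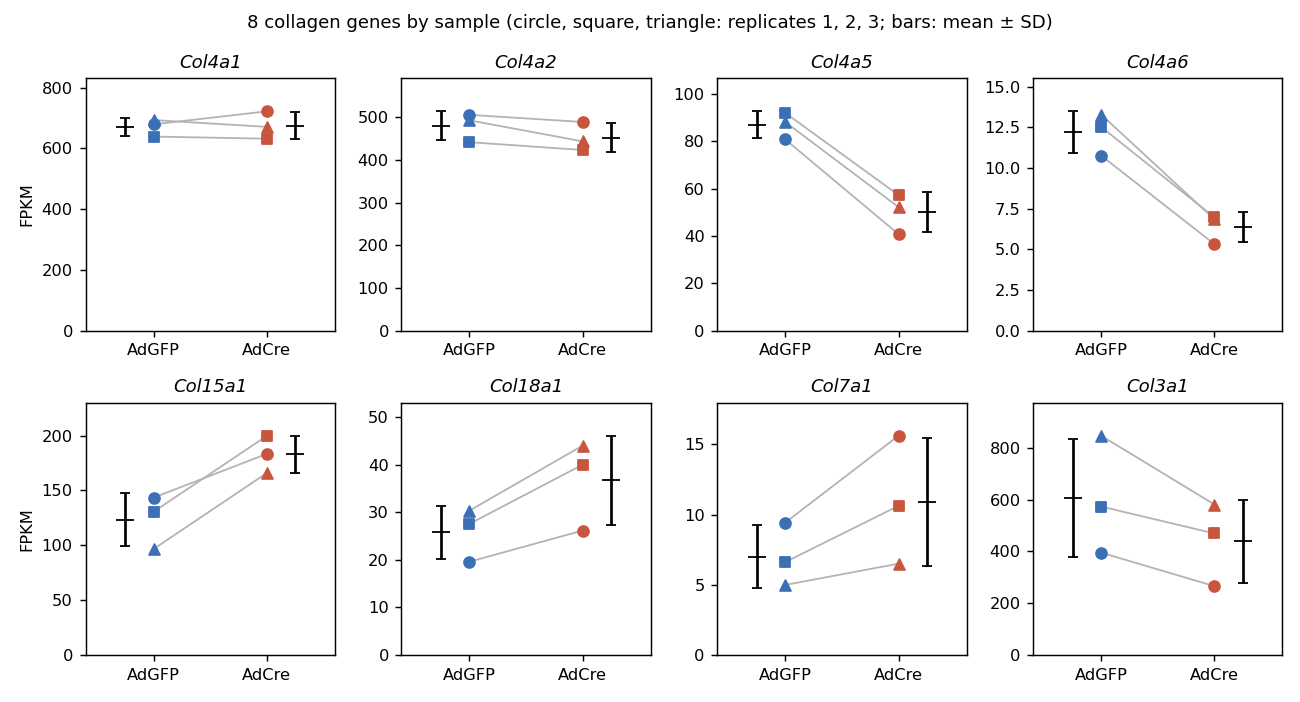
FPKM of Col4a1, Col4a2, Col4a5, Col4a6, Col15a1, Col18a1, Col7a1 and Col3a1 in each sample, with grey lines joining same-numbered samples and bars giving the mean ± SD of 3 samples per group. The highest AdCre value of Col4a5 is 57.3 against a lowest AdGFP value of 80.8, while all points of Col4a1 lie between 632 and 722.

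Col15a1 and Col18a1 encode the multiplexin core proteins of the outer basement membrane zone, from which the fragments restin and endostatin are cut. Col15a1 (ENSMUSG00000028339, chr4:47208161-47313167) was at 143, 130.5 and 96.5 FPKM in AdGFP and at 183, 199.7 and 166 FPKM in AdCre. All AdCre samples were above all AdGFP samples. The means were 123 ± 24.2 and 183 ± 16.9 FPKM (SD, n = 3 each), and the fitted log2 fold change was 0.58 (SE 0.18, limma adjusted p 0.352, with the block 0.0354).

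Col18a1 (ENSMUSG00000001435, chr10:77052178-77166548) was at 19.6, 27.6 and 30.3 FPKM in AdGFP and at 26.2, 40.0 and 44.0 FPKM in AdCre. Here the ranges overlapped, and each AdCre sample was above the AdGFP sample of the same number by 0.42 to 0.54 on the log2 scale. The log2 fold change was 0.50 (SE 0.25, limma adjusted p 0.566, with the block 0.0271). It was 0.31 without AdGFP replicate 1. With the block, both genes still passed without pair 1, and neither did without pair 2, pair 3, the filter on low values or the trend. Among 12 endothelial markers, 10 had a log2 fold change above 0 (beside 6842 of 13794 genes tested). Cldn5 (-0.04) and Vwf (-0.06) were below 0. The median of the 12 was 0.34, and the pair medians were 0.45, 0.31 and 0.31. With the block 4, Cdh5, Egfl7, Eng and Flt1, passed as higher (beside 2.64%), and none did without it. The pair differences were 0.35, 0.61 and 0.78 for Col15a1 and 0.42, 0.54 and 0.54 for Col18a1. All 7 tested macrophage markers (median 0.50) and all 7 tested activated fibroblast markers (median 0.24) were above 0 too. Medians of the fibroblast, cardiomyocyte, mural and epicardial lists were below 0. The part of any of these lists in the multiplexin values was not tested.

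Col7a1 (ENSMUSG00000025650, chr9:108953586-108984875), the anchoring fibril collagen, was at 9.42, 6.61 and 4.98 FPKM in AdGFP and at 15.6, 10.6 and 6.50 FPKM in AdCre. The ranges overlapped, with replicate 1 the highest and replicate 3 the lowest of both groups. The log2 fold change was 0.59 (SE 0.35, limma adjusted p 0.649, with the block 0.0354), and the call was lost without the filter on low values, without the trend and when any 1 pair was left out. The fold change was 0.29 when AdCre replicate 1 was dropped, 0.37 when AdGFP replicate 3 was, and 0.92 when it was AdCre replicate 3.

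The beaded filament chains Col6a1, Col6a2 and Col6a3 had smaller differences. Col6a1 was at 76.4, 132 and 148 FPKM in AdGFP and at 73.7, 128 and 136 FPKM in AdCre, with replicate 1 the lowest of each group. Its level thus varied 1.93-fold among AdGFP samples and by no more than 0.12 on the log2 scale within a pair. Col6a2, its neighbour on chromosome 10, was at 47.8 ± 12.3 and 43.2 ± 10.6 FPKM, and Col6a3 at 62.1 ± 1.89 and 73.3 ± 12.4 FPKM, in AdGFP and AdCre (SD, n = 3 each). Col6a3 did not overlap between the groups, with a highest AdGFP value of 63.8 and a lowest AdCre value of 65.8 FPKM, but did not pass (limma adjusted p 0.680, and 0.222 with the block). Its log2 fold change of 0.23 was 0.09 with AdCre replicate 2 dropped, the sample with the highest value. None of the 3 genes passed with or without the block.

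Of the other genes outside the main classes, Col8a1, a short-chain network collagen of vessel walls, was at 56.3 ± 12.9 FPKM in AdGFP and at 64.8 ± 10.4 FPKM in AdCre (SD, n = 3 each; limma adjusted p 0.805). Col23a1, a membrane-spanning collagen, was at 0.332, 0.681 and 0.891 FPKM in AdGFP and at 0.680, 1.52 and 1.63 FPKM in AdCre. Its log2 fold change was 0.90 (SE 0.45, limma adjusted p 0.566, with the block 0.0690). It was 0.47 with a pseudocount of 1 FPKM and 1.01 with 0.01 FPKM, and ran from 0.56 (AdGFP replicate 1 dropped) to 1.27 (AdCre replicate 1 dropped) when single samples were left out. It rested on 47 to 259 reads per sample.

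Of the 9 fibrillar genes, 5 (Col1a1, Col1a2, Col3a1, Col5a2 and Col11a1) had lower values in AdCre within all 3 pairs (beside 24.5% of all genes tested), and 1 of them passed with the block (beside 3.51% passing as lower). Of the 12 fibroblast markers, 8 were below 0 and 4 above, with a median log2 fold change of -0.16. With the block Dcn and Lum passed as lower (beside 3.51% of all genes tested) and Thy1 as higher (beside 2.64%). The pair differences were -0.60, -0.72 and -1.04 for Dcn, -0.62, -0.34 and -0.52 for Lum, and 0.48, 0.40 and 0.33 for Thy1. All 7 tested activated fibroblast markers were above 0 (median 0.24). The part of these markers in the fibrillar values was not tested. Col3a1 (ENSMUSG00000026043, chr1:45311538-45349706), the chain of type III fibrils, was at 395, 573 and 847 FPKM in AdGFP and at 266, 469 and 581 FPKM in AdCre. The ranges overlapped, with replicate 1 the lowest and replicate 3 the highest of both groups. The means were 605 ± 228 and 439 ± 159.9 FPKM (SD, n = 3 each), and the fitted log2 fold change was -0.47 (SE 0.38, limma adjusted p 0.762, with the block 0.0484). The call was lost after rescaling to TPM, without the filter on low values, without the trend and when any 1 pair was left out. Single samples moved the fold change, to -0.14 and -0.71 with AdCre replicate 1 and 3 left out in turn, and to -0.74 and -0.19 with AdGFP replicate 1 and 3 left out in turn.

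Col1a1 (ENSMUSG00000001506, chr11:94936224-94953042) and Col1a2 (ENSMUSG00000029661, chr6:4504814-4541544) encode the chains of type I collagen. Col1a1 was at 1473, 1987 and 2449.7 FPKM in AdGFP and at 1389, 1746 and 1806 FPKM in AdCre, and the fitted log2 fold change was -0.24 (SE 0.26, limma adjusted p 0.838, with the block 0.263). Col1a2 was at 449.9, 645 and 959 FPKM in AdGFP and at 392, 509 and 577 FPKM in AdCre, and the fitted log2 fold change was -0.42 (SE 0.30, limma adjusted p 0.714, with the block 0.105). For both, the pair difference was largest in pair 3, at -0.44 and -0.73. The groups overlapped, and neither difference exceeded the within-group SD on the log2 scale. When single samples were left out the change ran from -0.43 (AdGFP replicate 1 dropped) to -0.06 (AdGFP replicate 3 dropped) for Col1a1 and, for the same samples, from -0.69 to -0.15 for Col1a2. It was -0.12 and -0.27 with AdCre replicate 1 dropped, and -0.15 on TPM for Col1a1.

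Type V chains nucleate fibrils and set their diameter. Col5a1 was at 223 ± 21.7 and 222 ± 10.4 FPKM and Col5a2, the neighbour of Col3a1 on chromosome 1, at 206 ± 69.8 and 169 ± 32.9 FPKM in AdGFP and AdCre (SD, n = 3 each), with limma adjusted p-values of 0.996 and 0.836. The log2 fold change of Col5a2, -0.25, was -0.002 with AdGFP replicate 3 dropped and -0.49 with AdGFP replicate 1 dropped. Col5a3 was at 5.16 ± 1.67 and 5.92 ± 1.21 FPKM. Col11a1, a minor fibrillar chain best known from cartilage, was at 16.0 ± 8.14 and 12.7 ± 4.78 FPKM, with the widest range in AdGFP of the tested fibrillar genes (2.56-fold). Exons of Col5a1 overlapped antisense genes over 2.5% of their length, with the same limit as for Col4a3.

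Of the tested fibrillar genes, those at the lowest levels, Col2a1 and Col27a1, had higher values in AdCre. Col2a1, the main cartilage collagen, was at 0.394, 0.354 and 0.483 FPKM in AdGFP and at 0.611, 0.901 and 0.933 FPKM in AdCre, without overlap. Its log2 fold change was 0.83 (SE 0.32), on 83 to 239 reads per sample (limma adjusted p 0.448, and 0.153 with the block). With a pseudocount of 1 FPKM it was 0.36, and with voom and the block 1.04. Col27a1, a cartilage-associated fibrillar chain, was at 1.08 ± 0.138 and 1.36 ± 0.251 FPKM (SD, n = 3 each), and did not pass (limma adjusted p 0.725).

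The FACIT genes Col12a1, Col14a1 and Col16a1, whose products bind the surface of fibrils or matrix around cells, had group means of 28.3 to 56.4 FPKM and none passed. Col12a1 was at 55.9 ± 5.62 FPKM in AdGFP and at 50.9 ± 14.7 in AdCre, with pair 2 higher and pairs 1 and 3 lower in AdCre. Col14a1 was at 56.4 ± 16.3 and 47.3 ± 12.0 FPKM, lower within all 3 pairs (limma adjusted p 0.838, and 0.126 with the block), and its log2 fold change of -0.25 was -0.03 when either AdGFP replicate 3 or AdCre replicate 1 was dropped and -0.44 with AdGFP replicate 1 dropped. Col16a1 was at 29.0 ± 4.03 and 28.3 ± 2.93 FPKM, and Col20a1 at 0.634 ± 0.173 and 0.588 ± 0.114 FPKM (SD, n = 3 each). With the block, 0 of the 4 FACIT genes passed (beside 6.15% of all genes tested; 1 was at an unadjusted p under 0.05, beside 24.7%, and 0 passed with voom).

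Chains that assemble together were compared as ratios of FPKM by an exact two-sided permutation test, which cannot go below p = 0.1 for 3 samples against 3. The size of a ratio depends on the exon lengths used, which does not touch its change between groups. Col1a1 to Col1a2 was 2.97 ± 0.372 in AdGFP and 3.37 ± 0.214 in AdCre (n = 3 each, exact p = 0.2), where type I trimers take 2 chains of the first to 1 of the second. Col4a1 to Col4a2 was 1.34, 1.45 and 1.41 in AdGFP and 1.48, 1.49 and 1.51 in AdCre, the only tested ratio without overlap (exact p = 0.1). Col5a1 to Col5a2 (exact p = 0.5), Col6a1 to Col6a2 (exact p = 0.5) and Col6a3 to Col6a1 (exact p = 0.4) overlapped. Over the 5 ratios every Benjamini-Hochberg adjusted exact p was 0.5. All 5 ratios were higher in AdCre within each of the 3 pairs, which this test does not use, and the pair differences were not tested. Single samples moved the log2 differences of the ratios, which ran from 0.08 to 0.26 for Col1a1 to Col1a2, from 0.07 to 0.12 for Col4a1 to Col4a2, from 0.06 to 0.41 for Col5a1 to Col5a2, from 0.002 to 0.12 for Col6a1 to Col6a2 and from 0.09 to 0.57 for Col6a3 to Col6a1 when 1 was left out.

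The 17 collagen genes below 0.5 FPKM were Col6a4, Col6a5, Col6a6, Col8a2, Col9a1, Col9a2, Col9a3, Col10a1, Col11a2, Col13a1, Col17a1, Col19a1, Col22a1, Col24a1, Col25a1, Col26a1 and Col28a1, with means of 0.00857 to 0.340 FPKM. Col22a1, a FACIT collagen of tissue junctions such as that of muscle and tendon, had 1, 2 and 1 reads in AdGFP and 7, 25 and 18 in AdCre. Col24a1, a fibrillar collagen known from developing bone, had 52, 52 and 50 reads in AdGFP and 117, 58 and 59 in AdCre. Of all samples, AdCre sample 1 had the most recovered reads (32.4 M). Groups did not overlap in FPKM for 5 of the 17, beside 9.66% of the 12366 genes below the filter whose mean was at least that of the lowest of these, with Col6a5, Col9a3, Col22a1 and Col24a1 higher and Col9a2 lower in AdCre. The highest AdGFP and lowest AdCre values were close for Col9a3 (0.327 and 0.332 FPKM) and Col24a1 (0.276 and 0.279 FPKM). Fitted without the filter, none of the 17 passed, and without the block Col22a1 had the smallest p among them (limma adjusted p 0.591, and 0.321 with the block).

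Genes that process or bind collagen were taken from a list of 44, of which 43 were tested (Tll2 was below 0.5 FPKM). Without the block 0 passed (beside 0.00725% of all genes tested) and 3 were at an unadjusted p under 0.05 (6.98%, beside 10.2%; voom called 0, with 4 at that level), and with the block 1 passed (2.33%, beside 6.15%). This was Loxl4, a lysyl oxidase-like crosslinking enzyme, at 14.1, 7.66 and 7.69 FPKM in AdGFP and at 19.8, 15.1 and 11.4 FPKM in AdCre, with a log2 fold change of 0.67 (SE 0.30, limma adjusted p 0.512, with the block 0.0358). The median log2 fold change of the 43 was 0.02, with 22 above and 21 below 0. With the block, 3 passed after rescaling to TPM, 7 with voom and 2 without pair 1, and Loxl4 was lost without the filter, the trend, pair 2 or pair 3.

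By step, the genes with the smallest p without the block were as follows. Among 15 hydroxylation and glycosylation genes it was P4ha2, a prolyl 4-hydroxylase subunit, at 48.0 ± 7.07 FPKM in AdGFP and at 29.5 ± 10.4 in AdCre (SD, n = 3 each; limma adjusted p 0.374). Among 8 chaperones and export factors it was Fkbp10, a prolyl isomerase of the endoplasmic reticulum, at 99.1 ± 3.71 and 117 ± 12.8 FPKM (limma adjusted p 0.624). Among 7 tested propeptide-removal genes it was Pcolce2, a procollagen proteinase enhancer, at 5.12 ± 0.529 and 6.39 ± 1.23 FPKM (limma adjusted p 0.641). With the block, other genes of this step had smaller p-values than Pcolce2.

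Among 5 crosslinking enzymes Loxl3 had the smallest p without the block, at 12.7 ± 1.61 and 17.3 ± 3.18 FPKM (limma adjusted p 0.481, and 0.0514 with the block). With the block the smallest p of this step was that of Loxl4. Among 8 receptors the smallest p, with or without the block, was that of Ddr1, a collagen-binding receptor tyrosine kinase. Ddr1 was at 75.8, 79.2 and 70.4 FPKM in AdGFP and at 61.8, 55.9 and 57.1 FPKM in AdCre, without overlap (limma adjusted p 0.35, and 0.0546 with the block). Ddr1 and Loxl2 were the only genes of the list whose groups did not overlap, both lower in AdCre (4.65%, beside 15.4% in either direction and 8.02% lower among all genes tested).

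Marker lists are given beside the shares of all genes tested that passed with the block, 2.64% higher and 3.51% lower, and 6842 of 13794 genes were above 0. Of 12 fibroblast markers, 4 were above 0 and 8 below (median log2 fold change -0.16), and with the block Thy1 was higher and Dcn and Lum, small proteoglycans that bind collagen fibrils, were lower. All 7 tested activated fibroblast markers were above 0 (median 0.24), and of these Tnc passed with the block. For 8 mural markers the median was -0.06, and 0 passed with or without the block or with voom (at an unadjusted p under 0.05 there were 0 without the block and 1, Pdgfrb, with it). Of the 8 epicardial and mesothelial markers, 6 were below 0 (median -0.42), with Aldh1a2 higher and Lrrn4 and Tbx18 lower with the block. Of 10 cardiomyocyte markers all were below 0 (median -0.75) and 6 passed as lower with the block, and 7 of 7 tested macrophage markers were above 0 (median 0.50, C1qb and Lyz2 higher with the block). No marker passed without the block. The part of these lists in the collagen values was not tested.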

How the data were processed

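Poly(A) RNA was selected from total RNA and copied from random primers, and the authors deposited 1 table of gene-level FPKM, with 1 column per sample and no pooling. The processing notes of the submitters name fastp, STAR 2.5, HTSeq 0.6.1 and the mm10 build. Neither the annotation nor the strand setting is given in the sources used here. Of 54532 gene IDs, 54495 were in GENCODE M21 (GRCm38), which gave symbols, coordinates and exon lengths. FPKM times exon length divided by the value of 1 read gave whole reads (tolerance 0.05) in every sample for 96.85% of the 28445 genes above 0. Library sizes had been rescaled by factors of 0.949 to 0.994 in AdGFP and of 1.01 to 1.05 in AdCre, without overlap. With these factors undone, the median log2 fold change over all genes tested was 0.058.

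Groups came from the labels. log2(FPKM + 0.1) was fitted in limma 3.58.1 (R 4.3.3) for the 13794 genes that averaged 0.5 FPKM or more, with a group term, eBayes with a trend and Benjamini-Hochberg adjustment over all of them, called at 0.05. Fold changes on this scale understate those of low genes. Replicate numbers are shared by the groups without a stated meaning. Same-numbered samples deviated together over all genes (r = 0.568, 0.268 and 0.506, against -0.497 to 0.036 otherwise), and the numbers were therefore treated as pairs, from the values alone; results with the replicate block stand beside those without it. Between replicates, chi-square divided by its degrees of freedom was 44.2 to 142.5, so none was a repeat of another. The labels call them biological replicates without naming cultures or animals, so p-values measure only the spread between these samples, which may be technical.

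Every tested collagen gene is named, and of the processing list the genes that passed with or without the block and, per step, the gene with the smallest p without the block. Single marker genes and Loxl2 were named after their values were seen, as were the ratios of Col4a5 to Col4a1 and Col4a6 to Col4a5. Members and lists were chosen with earlier results of these data known. The fit was repeated with pseudocounts of 1 and 0.01, without the filter, with a filter at 1 FPKM, on TPM, with median centring, with the scaling factors of the authors undone, with eBayes without a trend, with voom on recovered reads, with the replicate block, and leaving out samples or pairs. Over 1% of the 50-base transcript words of a collagen gene occurred in other genes for 3 members (Col6a5, Col6a6 and Col26a1), at most 3.54%. The scripts were tested on simulated data.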

Additional observations from a re-analysis of the deposited data

How the results depend on the processing

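Without the replicate block, no collagen, collagen-processing or marker gene passed under any alternative, and among all genes 3 passed with a pseudocount of 1, 0 without a filter, 4 without a trend, 0 with voom on recovered reads and 0 to 2 when single samples were left out. With the replicate block, 848 genes passed (6 collagen, 1 processing, 19 marker genes). It was 875 (5, 3 and 19) after rescaling to TPM, 1741 (9, 7 and 30) with voom, 772 (4, 2 and 18) without pair 1, 149 (1, 0 and 4) without pair 2, 1 (0, 0 and 0) without pair 3, 17 (0, 0 and 0) without a filter and 0 without a trend. The lowest adjusted p of a collagen gene was 0.0516 without a filter, 0.0582 without a trend and 0.0798 without pair 3. At the main settings the block changed the call of the 6 collagen genes named in the report, of Loxl4 and of 19 markers, and of no other collagen or named processing gene. With voom and the block Col1a2, Col2a1, Col23a1, Loxl3, Ddr1 and P4ha2 passed too, and Loxl3 also did on TPM and without pair 1. Why the settings differ was not tested.

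Directions reversed for the following genes, none of which passed under any setting. After rescaling to TPM, with or without the block, the log2 fold change was 0.0021 for Col4a2, 0.0822 for Col5a1, 0.0137 for Col6a1 and 0.0563 for Col16a1. Col5a1 was at 0.0055 after median centring. Without the scaling factors of the authors Col5a1 was at 0.0549 and Col16a1 at 0.029, with voom at 0.0554 and 0.0295, and with voom and the block at 0.0549 and 0.0289. With the block and without pair 1, Col4a1 was at -0.0316 and Col20a1 at 0.0297, and without pair 3, Col5a1 was at 0.0384 and Col20a1 at 0.051. Leaving out single samples gave -0.5624 to 0.1112 for Col11a1, -0.3848 to 0.0307 for Col12a1, -0.1125 to 0.0775 for Col16a1, -0.2438 to 0.0935 for Col20a1, -0.0412 to 0.0549 for Col4a1, -0.0781 to 0.0621 for Col5a1, -0.0519 to 0.4319 for Col5a3, -0.3656 to 0.2029 for Col6a1 and -0.3669 to 0.0808 for Col6a2. The fibrillar median ran from -0.4314 to -0.0016. Of the 17 genes below 0.5 FPKM, those whose values gave whole reads (all but Col11a2 and Col17a1) had at most 117 in a sample, and the tested genes Col2a1 and Col23a1 had between 47 and 259.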
